A study of Mus musculus with 31 samples.

Results

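Polycomb repressive complex 2 (PRC2) and the enzymes that undo its mark were followed through single mouse embryos at the 2-cell stage. The 10 genes were taken by name: Ezh1 and Ezh2 (catalytic subunits), Eed and Suz12 (core subunits), Rbbp4 (histone-binding core subunit), Jarid2, Mtf2 and Phf19 (accessory subunits), and Kdm6a and Kdm6b (H3K27 demethylases). All 10 were found among the 20544 genes of the deposited count table, and the rule uses no measured value. Each of 31 embryos was sequenced as a library of its own by Smart-seq3, a full-length single-cell RNA-seq method, with 16 control-generated and 15 SER-generated embryos. SER (sperm energy restriction and recovery) is a treatment in which sperm are held without glucose and pyruvate until they stop moving and are then given both back before in vitro fertilization. Control sperm were kept in the same IVF-TYH medium with both nutrients (IVF-TYH +/+). All animals were wild type, with C57BL/6J males of 12 to 14 weeks and superovulated CD1 females of 8 to 10 weeks. The starved sperm lost motility after 15 to 45 min, gametes were kept together for 4 h, and embryos of both groups were collected 32 h post insemination (HPI). The oocyte parent was thus the same strain in both groups, and only the sperm had been treated. The paper placed opposite caudae epididymides of a male in control and SER medium, and sequenced independent batches of embryos. The labels tie no embryo to a mouse, a batch or an in vitro fertilization day, so this matching was not used. The p-values here measure the spread between embryos, and a parent, batch or day effect cannot be told apart from it.

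PRC2 places methyl groups on lysine 27 of histone H3, and the trimethylated form, H3K27me3, marks silent developmental genes. Ezh1 or Ezh2 carries the methyltransferase activity and needs Eed, which reads the mark, and Suz12, which holds the complex together, while Rbbp4 contacts the histone. Accessory subunits define alternative forms of the complex, one with a Polycomb-like protein such as Mtf2 or Phf19 and another with Jarid2. Kdm6a (UTX) and Kdm6b (JMJD3) remove the methyl groups from H3K27. In mouse the 2-cell stage is the time of the major zygotic genome activation (ZGA), so an embryo holds transcripts loaded by the oocyte beside those newly made, and a read count does not say from which of them it came.

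The counts on genes per library ranged from 532945 to 2085222 in control-generated embryos (median 955806.5) and from 642321 to 3088396 in SER-generated embryos (median 1375557), so that 3 counts corresponded to 0.971 to 5.63 CPM, where CPM is the count of a gene scaled to a common library total. Embryo identity was checked with 14 zygotic genes such as Zscan4d and Zfp352 and 14 oocyte genes such as Zp3 and Gdf9. In every embryo 7 of the zygotic and 12 of the oocyte genes were counted. Of 8 cumulus cell genes all had a median of 0 over all embryos. Their summed level stayed at or below 61.4 CPM in control-generated and 9.60 CPM in SER-generated embryos. Of 6 sperm genes 5 had a median of 0 over all embryos. A zygotic index was computed as the mean log2 CPM of the zygotic genes minus that of the oocyte genes. It ran from -5.78 to 0.57 in control-generated embryos (median -0.95) and from -5.35 to 0.65 in SER-generated embryos (median -0.55), and the group means did not differ beyond the spread (2-sided permutation test with 100000 resamples, p = 0.745). Control embryo 4 at -5.78 and SER embryo 15 at -5.35 stood apart from the next embryo, at -2.68. Control embryo 4 had 662768 counts and SER embryo 15 had 2567720, and they held the highest summed oocyte gene levels of their groups, 11054 and 12046 CPM against medians of 3944 and 3418 CPM.

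Promoter sequences are shown for 4 of the subunit genes whose transcript levels, described below, followed the zygotic index across all embryos. Mtf2 and Rbbp4 went upward, and Ezh2 and Eed downward. Of these 4 genes only Mtf2 was still called without the 2 embryos that stand apart. Suz12 was also called upward across all embryos, and its window is not shown. That window held 3 GC boxes, 1 CCAAT box and 37 CpG dinucleotides. The windows shown hold the 250 bases before the RefSeq start (the upstream start for Mtf2) on GRCm38.p6, read 5′ to 3′ on the strand of the gene. They are chr5:108065424-108065673 (plus) for Mtf2, chr4:129335371-129335620 (minus) for Rbbp4, chr6:47595031-47595280 (minus) for Ezh2 and chr7:89980977-89981226 (minus) for Eed. Capitals mark matches on either strand to the GC box GGGCGG, the CCAAT box, the TATA box TATAAA and the E-box CACGTG, with no overlap between matches.
Mtf2: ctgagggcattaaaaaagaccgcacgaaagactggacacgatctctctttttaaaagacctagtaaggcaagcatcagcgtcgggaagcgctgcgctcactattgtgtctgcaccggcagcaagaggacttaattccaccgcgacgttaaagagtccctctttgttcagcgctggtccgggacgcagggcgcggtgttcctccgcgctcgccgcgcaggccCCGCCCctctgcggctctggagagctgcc
Rbbp4: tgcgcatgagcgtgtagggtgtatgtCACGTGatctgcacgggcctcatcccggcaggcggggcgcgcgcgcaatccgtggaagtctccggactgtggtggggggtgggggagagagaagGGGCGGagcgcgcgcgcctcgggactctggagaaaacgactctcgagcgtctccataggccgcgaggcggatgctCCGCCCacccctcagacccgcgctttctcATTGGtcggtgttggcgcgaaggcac
Ezh2: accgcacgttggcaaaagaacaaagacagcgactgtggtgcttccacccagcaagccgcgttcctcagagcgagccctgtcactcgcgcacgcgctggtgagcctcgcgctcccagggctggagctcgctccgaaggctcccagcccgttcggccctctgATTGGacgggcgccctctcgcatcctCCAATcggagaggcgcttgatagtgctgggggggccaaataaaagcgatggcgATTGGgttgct
Eed: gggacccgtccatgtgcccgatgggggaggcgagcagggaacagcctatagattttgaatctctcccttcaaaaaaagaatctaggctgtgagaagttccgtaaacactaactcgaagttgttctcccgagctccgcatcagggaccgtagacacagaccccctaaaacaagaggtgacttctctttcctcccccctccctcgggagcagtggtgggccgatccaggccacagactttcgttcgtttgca
RefSeq also gives Mtf2 a second start, whose window, chr5:108077915-108078164, is not shown and held 1 CCAAT box, none of the other motifs and 2 CpG dinucleotides. The Mtf2 window shown held 1 GC box, the Rbbp4 window 2 GC boxes, 1 CCAAT box and 1 E-box, the Ezh2 window 3 CCAAT boxes, and the Eed window none of the 4 motifs. Over 32851 windows of the same length, a GC box was present in 32.7%, a CCAAT box in 33.8%, a TATA box in 12.4% and an E-box in 6.02%. CpG dinucleotides numbered 23 in the Mtf2 window shown, 30 in Rbbp4, 23 in Ezh2 and 12 in Eed, against a median of 6 over all windows. These matches are letters in a window and say nothing of which factor was bound. Of the 10 genes 9 had a promoter entry, and Kdm6b had none.

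On GRCm38, Ezh1 (chr11:101191115-101226463), Suz12 (chr11:79993106-80034123) and Kdm6b (chr11:69398508-69413675) share chromosome 11. The others are Ezh2 (chr6:47530139-47595341), Eed (chr7:89954654-89980983), Jarid2 (chr13:44729474-44921643), Mtf2 (chr5:108065674-108109004), Phf19 (chr2:34893757-34914026), Rbbp4 (chr4:129307100-129335370) and Kdm6a (chrX:18162575-18279936). These spans are from GENCODE, whose starts can differ from those of RefSeq. The Ezh2 window above lies inside the Ezh2 span, and the Eed window overlaps the 5′ end of the Eed span. Values were summed over all exons of a gene, so isoforms were not separated.

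Suz12, Ezh2 and Eed were among the more abundant transcripts of the 2-cell embryo, while Rbbp4 and Ezh1 were nearer the middle. With CPM divided by exon length, the median level over 31 embryos was highest for Suz12, at 88.6 CPM per kb, above 94.0% of the 8551 tested genes with an exon length. Ezh2 followed at 71.2 CPM per kb, Eed at 59.0, Mtf2 at 55.7 and Kdm6b at 49.0. The other genes were lower, with Ezh1 at 14.7 CPM per kb (above 61.2% of genes), Jarid2 at 12.9, Kdm6a at 10.5 and Rbbp4 at 8.59 (above 45.1%). The median of Phf19 was 0. Only 2 steps in this order exceeded the spread between embryos. Kdm6b was above Ezh1 in 31 of 31 embryos, by a mean of 1.85 ± 0.99 on the log2 scale (SD, n = 31), and Rbbp4 was above Phf19 in 31 of 31. Within the upper set the neighbours changed places often, with Suz12 above Ezh2 in 22 embryos, Ezh2 above Eed in 23, Eed above Mtf2 in 18 and Mtf2 above Kdm6b in 18 of 31. The lower set was as mixed, with Ezh1 above Jarid2 in 17, Jarid2 above Kdm6a in 18 and Kdm6a above Rbbp4 in 18. Within the pairs of related enzymes, Ezh2 held 65.9 to 96.1% of the Ezh1 plus Ezh2 counts, and Kdm6a held 6.99 to 47.9% of the Kdm6a plus Kdm6b counts, so Ezh2 and Kdm6b were the larger of their pair in every embryo. Exon lengths were taken over all annotated exons, so a gene that uses a short isoform is understated.

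**Figure D1:**
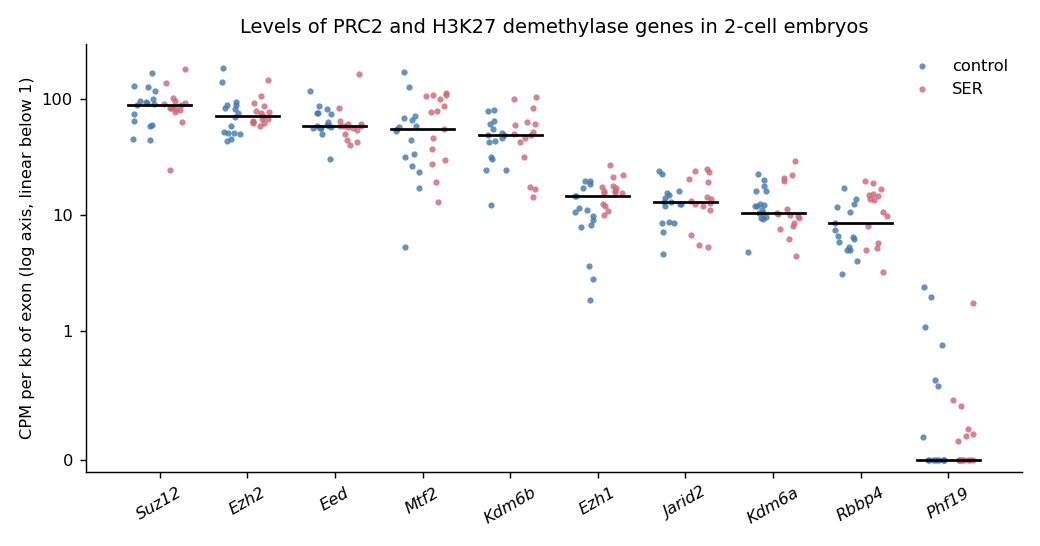
Level of each gene in CPM per kb of exon (log axis, linear below 1), with 1 point per embryo, control-generated in blue and SER-generated in red, and a bar at the median of 31 embryos. Suz12, Ezh2, Eed, Mtf2 and Kdm6b have medians from 88.6 to 49.0 CPM per kb, Ezh1, Jarid2, Kdm6a and Rbbp4 from 14.7 to 8.59, and Phf19 lies at 0.

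To determine whether transcripts for these writers and erasers of H3K27 methylation depended on the sperm treatment, SER-generated embryos were compared with control-generated embryos by edgeR's quasi-likelihood test over all genes. None of the 9 genes that passed the filter on low counts was called at an adjusted p of 0.1, against 0% of the 8571 genes tested. An unadjusted p under 0.05 was found for 491 of the 8571 genes and for 1 of the 9, Ezh1. The sign favoured SER-generated embryos for 5 of the 9 and control-generated embryos for 4, and their median log2 fold change was 0.14, against 0.02 over all genes tested. The signs of Ezh2, Suz12 and Kdm6b turned in at least 1 alternative fit, and that of Eed turned when control embryo 4 was left out. The levels of each gene in both groups follow.

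Among the catalytic subunits, Ezh1 spanned 13.7 to 146 CPM in control-generated embryos (median 80.5) and 74.7 to 201 CPM in SER-generated embryos (median 119.2). The groups overlapped, and the control median was exceeded in 14 of 15 SER-generated embryos. The fold was 1.45 (95% interval 1.03 to 2.04) and the log2 fold change 0.54 (SE 0.24), which missed the threshold by edgeR (p = 0.0340, adjusted p = 0.809). Ezh2, the paralog used by most dividing cells, spanned 293 to 1254 CPM in control-generated embryos (median 489) and 389 to 981 CPM in SER-generated embryos (median 475). The ranges overlapped nearly throughout, and the fold of 0.977 (95% interval 0.727 to 1.31) was not called (edgeR adjusted p = 0.992). Both maxima belonged to the embryos set apart by the zygotic index, and without them the highest values were 936 and 718 CPM. Ezh2 took 84.9 ± 9.50% of the Ezh1 plus Ezh2 counts in control-generated (SD, n = 16) and 80.4 ± 6.41% in SER-generated embryos (SD, n = 15). The difference of -4.53 percentage points lay within the spread (2-sided permutation test with 100000 resamples, p = 0.135). The share of 3 gene pairs was tested in this way, and the Benjamini-Hochberg adjusted p over them was 0.302 for this pair.

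Eed and Suz12 had nearly the same medians in both groups. Eed spanned 116 to 451 CPM in control-generated embryos (median 228) and 155 to 633 CPM in SER-generated embryos (median 225). The groups overlapped, and the fold was 0.948 (95% interval 0.712 to 1.26, edgeR adjusted p = 0.982). Its maxima were again control embryo 4 and SER embryo 15, without which the highest values were 337 and 322 CPM. Suz12 spanned 222 to 835 CPM in control-generated embryos (median 451) and 120 to 901 CPM in SER-generated embryos (median 427). The overlap was complete for the control range, and the fold was 0.969 (95% interval 0.717 to 1.31, edgeR adjusted p = 0.991). The lowest Suz12 value, 120 CPM, was that of SER embryo 15. For Ezh2, Eed and Suz12 the intervals leave room for folds between 0.712 and 1.31, and smaller differences than these could not be resolved with 31 embryos.

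Rbbp4, the histone chaperone that PRC2 shares with other chromatin complexes, spanned 27.2 to 149 CPM in control-generated embryos (median 56.6) and 28.0 to 172 CPM in SER-generated embryos (median 118). The ranges overlapped, and the control median was exceeded in 11 of 15 SER-generated embryos. The fold was 1.40 (95% interval 0.967 to 2.02) and was not called by edgeR (p = 0.0738, adjusted p = 0.869). With limma voom and sample quality weights Rbbp4 was the 1 gene of the 9 that was called, with a log2 fold change of 0.73 and an adjusted p of 0.0493, in a fit that called 848 of the 8571 genes (9.89%). DESeq2 left it uncalled (adjusted p = 0.689) in a fit that called 49 of 7241 genes (0.677%), and so did edgeR with 3 clusters of embryos estimated from the counts as a factor (adjusted p = 0.372), which called 0.478% of genes. The exons of Rbbp4 overlap those of Sync on the opposite strand over 782 bases, and the strand setting of the counting is not given in the sources used here, so reads in that stretch may belong to either gene.

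The accessory subunits Jarid2 and Mtf2 did not differ between the groups beyond the spread. Jarid2, which helps to recruit PRC2, spanned 44.9 to 235 CPM in control-generated embryos (median 124) and 51.4 to 244 CPM in SER-generated embryos (median 127). These ranges coincided nearly, and the fold was 1.10 (95% interval 0.800 to 1.51, edgeR adjusted p = 0.974). Mtf2, a Polycomb-like protein that binds unmethylated CpG-rich DNA, spanned 30.2 to 974 CPM in control-generated embryos (median 311) and 73.2 to 650 CPM in SER-generated embryos (median 441). The SER range lay inside the control range, and the fold was 1.15 (95% interval 0.709 to 1.87, edgeR adjusted p = 0.976). Mtf2 exons overlap those of Tmed5 on the opposite strand over 395 bases, with the same limit as for Rbbp4.

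Phf19, the other Polycomb-like gene of the set, was near the detection limit. It had no count in 9 of 16 control-generated and 8 of 15 SER-generated embryos, and its highest count was 27. Values ran from 0 to 12.1 CPM in control-generated and from 0 to 8.74 CPM in SER-generated embryos, with a median of 0 in both. Both groups covered the same low range, and in a fit without the filter, of 17803 genes, the fold was 0.460 with a 95% interval of 0.124 to 1.70 (edgeR adjusted p = 0.731), a fit in which 2.83% of genes were called. Its log2 fold change of -1.12 was -0.63 without the 2 embryos that stand apart, and ran from -1.97 (without SER embryo 10) to -0.62 (without control embryo 1) when single embryos were left out. A difference in Phf19 was not detectable at this depth. Mtf2 accounted for 97.7 ± 7.06% of the Mtf2 plus Phf19 counts in control-generated (SD, n = 16) and 99.7 ± 0.512% in SER-generated embryos (SD, n = 15), a difference of 2.00 percentage points (2-sided permutation test, p = 0.201, adjusted p = 0.302). The lowest share, 71.4%, was that of control embryo 4, which had the lowest Mtf2 level, and without the 2 embryos that stand apart the difference was 0.230 percentage points.

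Neither demethylase gene differed by treatment beyond the spread. Kdm6a, which lies on the X chromosome, spanned 40.3 to 189 CPM in control-generated embryos (median 99.7) and 37.1 to 243 CPM in SER-generated embryos (median 84.8). The groups overlapped over the whole control range, and the fold was 0.944 (95% interval 0.671 to 1.33, edgeR adjusted p = 0.983). Kdm6b spanned 84.9 to 566 CPM in control-generated embryos (median 331) and 99.1 to 733 CPM in SER-generated embryos (median 347). Its ranges also overlapped, and the fold was 1.12 (95% interval 0.772 to 1.61, edgeR adjusted p = 0.974). The highest Kdm6b value was that of SER embryo 15. Kdm6a took 26.7 ± 8.88% of the Kdm6a plus Kdm6b counts in control-generated (SD, n = 16) and 25.1 ± 12.4% in SER-generated embryos (SD, n = 15), a difference of -1.62 percentage points (2-sided permutation test, p = 0.679, adjusted p = 0.679). Uty, the Y-linked paralog of Kdm6a, had counts in 10 of 16 control-generated and 6 of 15 SER-generated embryos, up to 202 counts. Reads that fit both paralogs would be lost where only uniquely mapped reads were kept, as the paper states for a part of its reads. Embryo sex is not labelled, so it could not be taken into account for either gene.

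**Figure D2:**
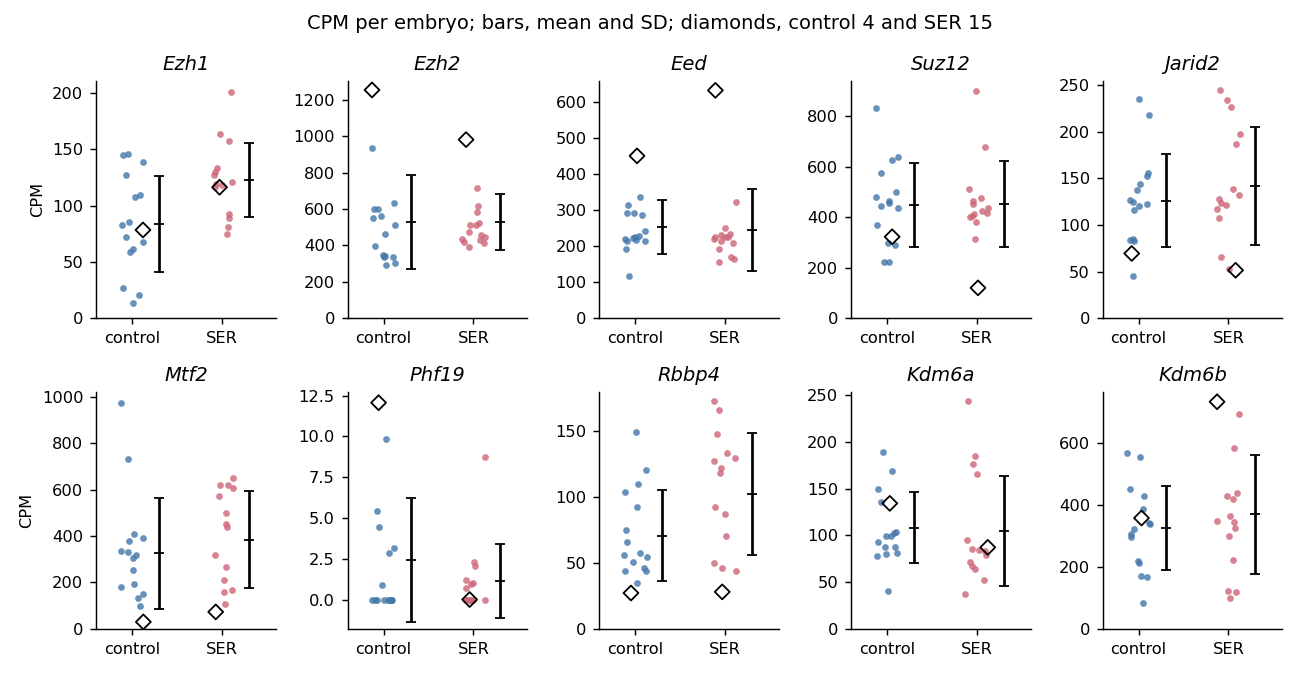
CPM of each gene in each embryo by group, with the mean and SD beside the points and open diamonds for control embryo 4 and SER embryo 15, the embryos of lowest zygotic index. All 10 genes overlap between the groups, and the diamonds hold the highest Ezh2 values (1254 and 981 CPM) and Eed values (451 and 633 CPM) and the lowest Mtf2 values (30.2 and 73.2 CPM) of their groups.

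**Figure D3:**
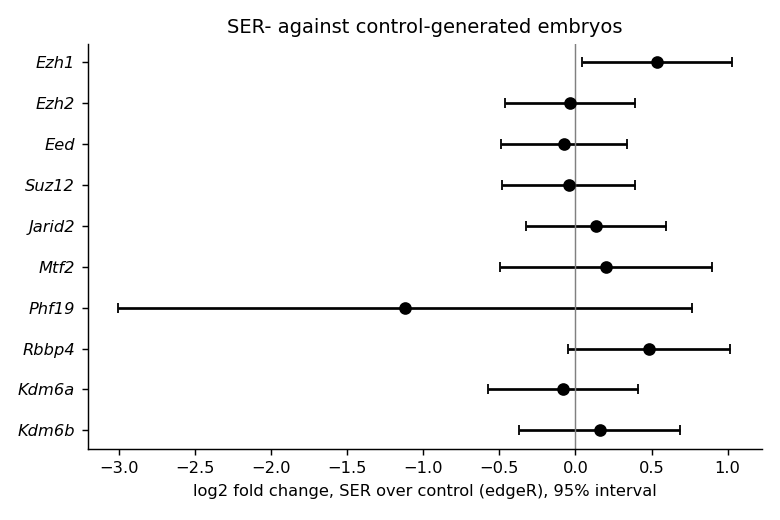
Log2 fold change of each gene, SER-generated over control-generated embryos, by edgeR with its 95% interval, where the Phf19 value comes from the fit of all genes. The intervals of 9 genes include 0, that of Ezh1 (log2 fold change 0.54) does not before adjustment, and none passed at an adjusted p of 0.1.

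Ezh1 was less even among control-generated than among SER-generated embryos, by a difference that was not called. The 3 lowest control-generated embryos had 13.7, 20.9 and 26.8 CPM, while no SER-generated embryo was below 74.7 CPM. The lowest, control embryo 3, was also the lowest control-generated embryo for Jarid2, Kdm6b and Crebbp (17.6 CPM against a control median of 672). Its low values were thus not particular to Ezh1, but its Suz12 level of 641 CPM was above the control median of 451. The SD of log2 CPM was 0.92 in control-generated and 0.33 in SER-generated embryos. A limma test of absolute deviations from the group median, chosen after these values were seen, gave a difference of -0.45 on the log2 scale with an unadjusted p of 0.0101 and an adjusted p of 1.00 over all genes, where 0% of 8571 genes were called. The p of 0.245% of all genes was smaller still, and no spread difference of the other 8 genes had an unadjusted p under that of Ezh1. In control-generated and SER-generated embryos, the log2 SDs were 0.60 and 0.40 for Ezh2, 0.59 and 0.59 for Suz12, and 1.16 and 1.02 for Mtf2. They were 0.44 and 0.51 for Eed, 0.54 and 0.68 for Jarid2, and 0.67 and 0.78 for Rbbp4. For Kdm6a they were 0.54 and 0.73, and for Kdm6b 0.68 and 0.86. Control-generated embryos had the larger SD for 4 of the 9 genes and for 54.2% of all genes tested. Without the 2 embryos that stand apart, these were 5 of the 9 and 60.1%. With counts thinned to a common library total they were 3 of the 9 and 52.9%.

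Along the axis from oocyte to zygotic transcripts, Mtf2 was higher and Kdm6b lower in the embryos with the higher zygotic index. Per unit of zygotic index, with the group as a covariate, 6 of the 9 genes were called by edgeR at an adjusted p of 0.1, 3 rising and 3 falling. Of the 8545 tested genes outside the index 51.7% were called, 30% rising and 21.8% falling, so the share among the 9 genes was near that of all genes. Without control embryo 4 and SER embryo 15 the calls were 2 of 9, Mtf2 rising and Kdm6b falling, against 29.4% of all genes, 16.6% rising and 12.8% falling.

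Mtf2 had the steepest slope of the 9 genes. Its level rose by 0.63 on the log2 scale per unit of index (SE 0.09, edgeR adjusted p = 1.6e-06), and by 0.81 without the 2 embryos (SE 0.15, edgeR adjusted p = 4.8e-04). The embryos of lowest index held 30.2 and 73.2 CPM, and the highest values, 974 and 733 CPM, were those of control embryos 2 and 1. The rank correlation with the index, given as a description, was 0.78 over 31 embryos, 0.73 over 29, 0.79 within 15 control-generated and 0.69 within 14 SER-generated embryos. All of these values share the library of each embryo, and CPM is relative to the library total, so a fall of other transcripts and a rise of this one cannot be told apart. The highest Mtf2 value was 32.3 times the lowest over 31 embryos, and 9.92 times without the 2 embryos. The same ratio for Ezh1 was 14.8 with and without them, and for Ezh2 it was 4.27 with and 3.19 without them.

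Rbbp4 rose by 0.31 per unit of index (SE 0.09, edgeR adjusted p = 0.00620), with 27.2 and 28.0 CPM in the embryos that stand apart. Without them the slope was 0.33 (SE 0.17) and was not called (edgeR adjusted p = 0.159), nor was the slope of 0.28 on the zygotic genes alone (edgeR adjusted p = 0.147). Its rank correlation with the index was 0.72 within the 15 control-generated embryos and 0.02 within the 14 SER-generated embryos. The difference between those slopes, -0.51 without the 2 embryos, was not called (edgeR adjusted p = 0.676, with 0% of 8571 genes called), so the groups were not shown to differ. Suz12 rose by 0.16 (SE 0.08, edgeR adjusted p = 0.0768), and by 0.11 without the 2 embryos (edgeR adjusted p = 0.577).

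Kdm6b moved the other way. It fell by 0.25 on the log2 scale per unit of index (SE 0.08, edgeR adjusted p = 0.0157) and by 0.43 without the 2 embryos (SE 0.17, edgeR adjusted p = 0.0664). On the zygotic genes alone its slope was -0.23 and was not called (edgeR adjusted p = 0.147). Its rank correlation with the index was -0.54 over 31 and -0.48 over 29 embryos, with -0.70 within 15 control-generated and -0.34 within 14 SER-generated embryos. Ezh2 fell by 0.23 (SE 0.05, edgeR adjusted p = 6.2e-04) and Eed by 0.24 (SE 0.05, edgeR adjusted p = 1.1e-04) over all embryos. Both of these rested on the embryos that stand apart, since without them the slopes were -0.05 for Ezh2 (edgeR adjusted p = 0.804) and -0.10 for Eed (edgeR adjusted p = 0.496). In those embryos Ezh2 stood at 1254 and 981 CPM and Eed at 451 and 633 CPM, beside their summed oocyte gene levels of 11054 and 12046 CPM. The part of the oocyte RNA in these slopes was not tested.

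Ezh1, Jarid2 and Kdm6a were not called along the index, with slopes of -0.06, 0.09 and -0.07 and edgeR adjusted p-values of 0.575, 0.454 and 0.494. Without the 2 embryos the slopes were -0.20, -0.18 and -0.12, that of Jarid2 with the opposite sign, and none was called. Phf19 had a slope of -0.16 in the fit of all genes (edgeR adjusted p = 0.734).

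**Figure D4:**
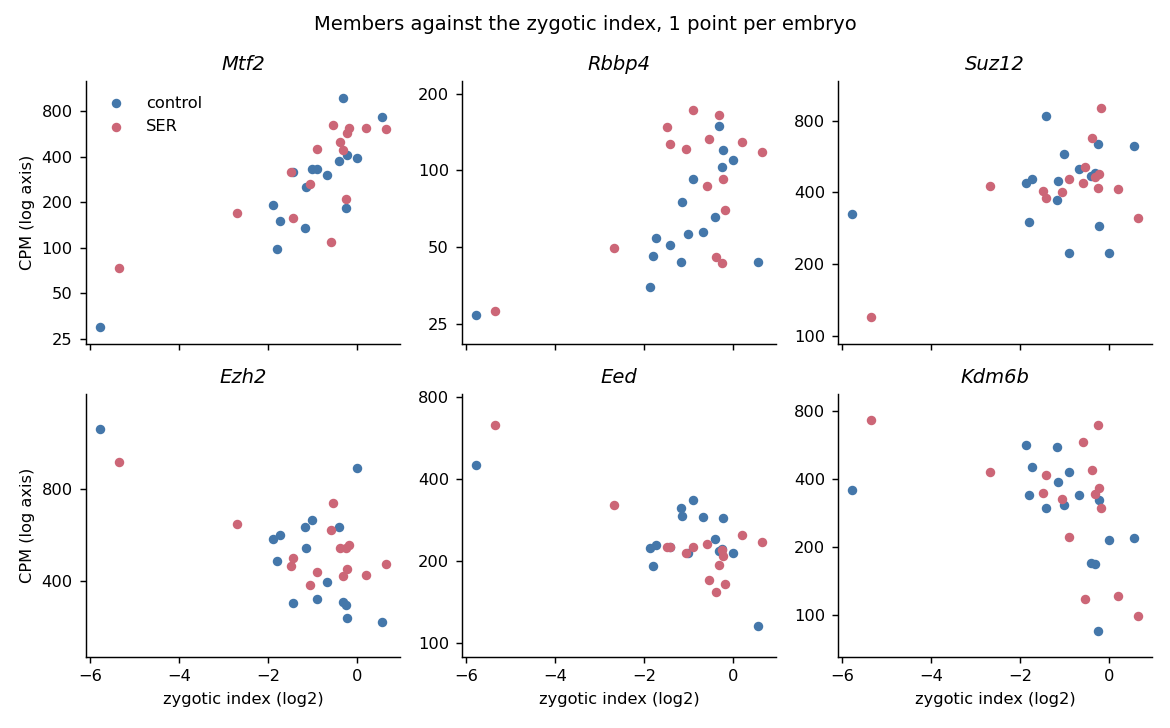
CPM (log axis) against the zygotic index (log2) for the 6 genes called along it, with 1 point per embryo, control-generated in blue and SER-generated in red. Mtf2 climbs through the main body of embryos, Kdm6b declines in it, and the Ezh2 and Eed slopes rest on the 2 points near -5.78 and -5.35.

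**Figure D5:**
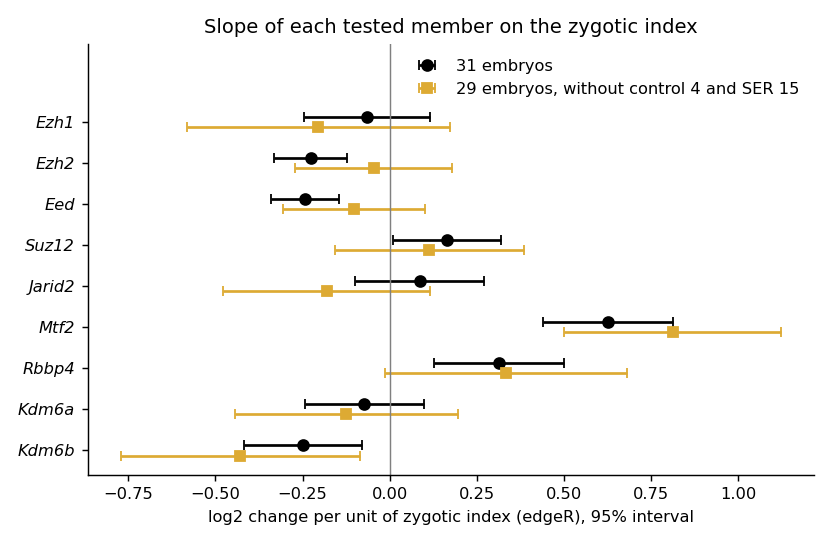
Slope of each tested gene on the zygotic index by edgeR with its 95% interval, over 31 embryos (black) and without control embryo 4 and SER embryo 15 (yellow). The Mtf2 interval stays above 0 and the Kdm6b interval below 0 in both fits, while those of Ezh2 (-0.23 and -0.05), Eed (-0.24 and -0.10), Suz12 and Rbbp4 reach 0 without the 2 embryos.

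Pairs of the genes varied together or against each other across embryos in about equal numbers. Of the 36 pairs of the 9 tested genes, 19 had a positive and 17 a negative rank correlation over 31 embryos. The median of its size, sign left aside, was 0.26, against 0.22 over 36726735 pairs of tested genes. These correlations are descriptions, and the values compared share a library and its depth. Mtf2 and Rbbp4 went together at 0.59, and 0.49 without the 2 embryos that stand apart. Kdm6b ran against both, at -0.66 with Mtf2 and -0.61 with Rbbp4, and at -0.62 and -0.55 without the 2 embryos. Suz12 went with Kdm6a at 0.42 and with Mtf2 at 0.41, and without the 2 embryos these were 0.48 and 0.34. Eed ran against Mtf2 at -0.42 and against Jarid2 at -0.42, and Ezh2 against Rbbp4 at -0.42, which became -0.30, -0.33 and -0.29 without them. Among Ezh2, Eed and Suz12 the values were 0.19 for Ezh2 and Eed, -0.12 for Ezh2 and Suz12 and -0.37 for Eed and Suz12, and without the 2 embryos 0.01, -0.00443 and -0.30. Ezh1 and Ezh2 stood at -0.38, and at -0.44 without them. Jarid2 and Rbbp4 went from -0.28 to -0.50 when the 2 embryos were left out.

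The genes with the pattern most like each member were named by their rank correlation over 31 embryos. For Mtf2 they were Tnpo3 (0.95), which encodes a nuclear import receptor, and Eloa (0.94), a subunit of the elongin complex. For Kdm6b they were Musk (0.89), a receptor tyrosine kinase gene, and Ski (0.88), which encodes a corepressor of SMAD signalling. Suz12 was most like Rmnd5a (0.84) and Zranb1 (0.79), and Rbbp4 most like Mkrn1 (0.81) and Fbxw2 (0.81). The neighbours of the other genes were less close, with Pfdn1 (0.74) and Zdhhc5 (0.65) for Kdm6a, Tab3 (0.73) and Usp26 (0.69) for Jarid2, and Shtn1 (0.72) and Ap3b1 (0.71) for Ezh2. For Eed they were Ung (0.66) and Daxx (0.65), and for Ezh1 Uhrf1bp1 (0.64) and Bach1 (0.62). Without the 2 embryos these 18 values lay between 0.59 and 0.94.

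Other genes of the Polycomb and H3K27 system were taken from a list of 26. It held partners of PRC2, canonical PRC1, genes for the removal of ubiquitin from H2AK119 and further enzymes acting on H3K27. Of these 26 genes 17 passed the filter, and none was called by edgeR between SER-generated and control-generated embryos (1 at an unadjusted p under 0.05, and 3 called by limma voom, which called 9.89% of all genes), with 10 higher, 7 lower and a median log2 fold change of 0.08. AU022751, the mouse Ezhip gene, whose product inhibits PRC2, had the highest level per length of the PRC2 partners, 210.2 CPM per kb of exon (median of 31 embryos). Its median was 523 CPM in control-generated and 363 CPM in SER-generated embryos. Its range was 130 to 2426 CPM in control-generated and 170 to 1289 CPM in SER-generated embryos, and with a log2 fold change of -0.55 (SE 0.35) it was not called (edgeR adjusted p = 0.918). Lcor, the source of the PRC2 partner PALI1, ranged from 78.5 to 1113 CPM in control-generated (median 447) and from 118 to 1386 CPM in SER-generated embryos (median 666). Its log2 fold change was 0.71 (SE 0.28, unadjusted p = 0.0161, edgeR adjusted p = 0.733), and the groups overlapped. The paper names Lcor among its differentially expressed genes, from DESeq2 at the same threshold of 0.1 after a batch correction. That correction could not be applied here, where no batch is labelled.

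Lcorl and Uty, both too low for the filter, had log2 fold changes of -1.47 (SE 0.80, edgeR adjusted p = 0.523) and -1.94 (SE 0.92, edgeR adjusted p = 0.430) in the fit of all genes. The Uty value was -2.85 without SER embryo 11 and -1.14 without control embryo 1. Embryo sex is not labelled, so a difference in Y-linked Uty cannot be told apart from the mix of sexes in each group. The Lcorl value ran from -1.90 to -1.20 with single embryos left out. The most abundant genes of the remaining groups were near 0, at 0.13 for Bmi1 of PRC1, -0.04 for the deubiquitinase gene Bap1 and 0.12 for the acetyltransferase gene Crebbp, with edgeR adjusted p-values of 0.973, 0.992 and 0.982. Along the zygotic index 12 of the 17 were called, 5 rising and 7 falling, against 51.7% of all genes, 30% rising and 21.8% falling. Without the 2 embryos 6 were called, 2 rising and 4 falling, against 29.4% of all genes. AU022751 fell by 0.45 per unit of index (SE 0.07, edgeR adjusted p = 7.2e-06) and by 0.42 without the 2 embryos (SE 0.17, edgeR adjusted p = 0.0747).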

How the data were processed

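Single-embryo libraries of 16 control-generated and 15 SER-generated 2-cell embryos were analysed. The authors split the reads into 5′ reads, which carry a molecular identifier, and internal reads, mapped each kind with STAR, took out duplicates and, after joining both, obtained gene counts with featureCounts. The submitters' processing notes name mm10. The deposited values are whole-number counts without normalization. Without identifiers on the internal reads, the error of a value is at least its counting error. The paper describes independent batches of embryos and a batch correction before its DESeq2 test. The labels name no batch, so no correction was applied here, and the calls here differ in method from those of the paper.

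Counts were tested with edgeR 4.0.16 (R 4.3.3) by the quasi-likelihood test, with TMM normalization and filterByExpr (minimum count 10, minimum total 15), and an adjusted p under 0.1 (Benjamini-Hochberg over all tested genes) was a call. Phf19, Lcorl and Uty, removed by the filter, took their values from the same fit without the filter. Alternatives used limma 3.58.1 and DESeq2 1.42.0. CPM used each library's total. Shares were compared by permutation with scipy 1.17.1, in embryos with at least 10 counts of the pair. Positions and exon lengths came from GENCODE vM21 on GRCm38. The edgeR test was tested on simulated data. No 2 libraries of a group were identical, and no embryo was left out of the main comparison.

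The members and gene lists were chosen with earlier results of these data known. Named genes are all 10 members, of the other Polycomb and H3K27 list every gene past the threshold, the 3 of smallest p and the highest expressed of each part, and for each tested member the 2 genes of highest rank correlation. The tests of spread and of slope differences were added after seeing the data.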

Additional observations from a re-analysis of the deposited data

How the results depend on the processing

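Between the groups, 0 of the 9 members were called under all alternatives except limma voom with sample quality weights (1, Rbbp4), and 0 of the other Polycomb genes except under limma voom (3, among them AU022751 at -0.92 and Lcor at 0.86). Over all genes, edgeR called 0, against 504 without the filter, 49 by DESeq2, 848 by limma voom and 41 with estimated clusters. Leaving out each of 31 embryos in turn gave 0 calls in both lists. Along the zygotic index, leaving out the 2 embryos of farthest index gave 2 calls in place of 6. The Kdm6a share difference of -1.62 was 0.756 percentage points as a difference of medians. Fold changes near 0 turned sign in some fits, on the log2 scale. Ezh2 was 0.00187 with estimated clusters, 0.13 with library size, 0.021 without the 2 embryos of lowest index and 0.0454 with the index as a covariate. Suz12 was 0.0538 under voom and 0.00163 without those embryos, Kdm6b -0.28 under voom and -0.0229 with library size, Bmi1 -0.065 and Bap1 0.0357 with library size. With single embryos left out the ranges were -0.14 to 0.13 for Ezh2, -0.28 to 0.0184 for Eed, -0.15 to 0.0272 for Suz12 and -0.12 to 0.048 for Bap1. The Ezh1 slope was 0.10 on the oocyte list alone and the Jarid2 slope -0.18 without the 2 embryos. On the zygotic list alone the Rbbp4 and Kdm6b slopes, 0.28 and -0.23, were not called (adjusted p = 0.147 for both, edgeR). The cause of these changes was not tested.

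Same-numbered embryos were not paired, since the correlation of their deviations ran from -0.38 to 0.47 over 15 pairs and 2 of 15 embryos correlated best with their own number. With the replicate number as a block, 0 members and 0 other genes were called between the groups and 5 members along the index. The block gave differences of -4.26, -1.73 and 2.13 percentage points for the Ezh2, Kdm6a and Mtf2 shares, log2 fold changes of 0.0589 for Ezh2 and 0.000610 for Bap1, and a Jarid2 slope of -0.00583.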
